A study of Mus musculus with 16 samples.

Results

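The m6A peaks described here lie in genes that carry a placeholder name, either Gm followed by digits or a name ending in Rik. Both the name and the peak were taken from the authors' deposited peak table, and any peak whose gene name had one of these forms was kept. This gave 332 of 13083 peaks, in 233 of 6847 genes with a peak. Of these, 101 peaks lay in 75 Gm genes and 231 peaks in 158 Rik genes. The other 12751 peaks, in 6614 genes, served as the comparison.

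The samples were bone of wild type mice after a sham operation (libraries titled NC) or after ovariectomy (OVX), the removal of the ovaries, which is used as a model of estrogen loss. Each arm had 4 input libraries and 4 libraries immunoprecipitated with an antibody to m6A (IP), 16 in all. The treatment field of all 8 IP libraries reads ovariectomy, also for the 4 titled NC, and the title was followed. The labels do not state whether the libraries came from separate animals, so p-values may reflect technical spread. The tables analysed here hold 1 value per peak or gene, combined over libraries by the authors, so no value per library is shown, and the arm in the numerator is not stated. Differences between arms are therefore given as positive or negative, as deposited.

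N6-methyladenosine is a methylated form of adenosine inside RNA chains, set mainly by a complex of Mettl3 and Mettl14, removed by the demethylases Fto and Alkbh5 and read by YTH domain proteins that affect the decay, splicing and translation of the RNA. In messenger RNA it is found mostly in long internal exons and around the stop codon and 3' untranslated region, in a context whose core is often GGAC. Gm names mark gene models predicted in the mouse genome, and Rik names come from the RIKEN collection of full-length cDNA clones. Such names hold protein-coding genes not yet named by function, long noncoding RNAs (lncRNAs) and transcribed pseudogenes. Well-known lncRNAs such as Xist and Malat1 carry m6A.

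All 233 genes were matched to RefSeq (GRCm38.p6), 12 of them, with 22 peaks, through an older name. By RefSeq class, 181 of the 332 peaks (54.5%) lay in 112 protein-coding genes, 129 (38.9%) in 104 lncRNA genes and 22 (6.63%) in 17 transcribed pseudogenes. Among all other peaks 99.2% lay in protein-coding genes and 75 (0.588%) in lncRNA genes, so the placeholder names held more lncRNA peaks than the other 12751 peaks together. Several of the older names now have a function. In the deposited peak table, 2900097C17Rik is Norad, a lncRNA that binds Pumilio proteins, and 1810026B05Rik is Chaserr, a lncRNA next to the chromatin remodeller Chd2. B230118H07Rik is Iftap, C530008M17Rik is Cracd, A830010M20Rik is Btbd8, and both 6430706D22Rik and A730008H23Rik are Hjurp, the chaperone that loads the centromeric histone Cenpa. Hjurp also has peaks under its own name.

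Sequence could be shown for the ends of 4 lncRNA peaks that reach into a RefSeq promoter window (GRCm38.p6; 250 bases before to 50 after a gene's start). They are printed as the stretches of these lncRNA peaks that could be read. The first 2 lie at the start of their own gene, and the Gm4532 stretch lies inside its gene and opposite the start of another. Of the 332 peaks, 12 touched such a window, and 174 of the 233 genes have one. Each is written 5' to 3' on the strand of the peak, with GGAC in capitals.
8430429K09Rik, chr11:3452487-3452532 on the plus strand: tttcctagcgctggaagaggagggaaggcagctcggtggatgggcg
G530011O06Rik, chrX:169978868-169978917 on the minus strand: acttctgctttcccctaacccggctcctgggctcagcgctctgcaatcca
Gm16740, chr3:95217943-95218030 on the plus strand: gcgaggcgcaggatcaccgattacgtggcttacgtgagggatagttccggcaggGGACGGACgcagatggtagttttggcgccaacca
Gm4532, chr7:127232811-127232893 on the minus strand: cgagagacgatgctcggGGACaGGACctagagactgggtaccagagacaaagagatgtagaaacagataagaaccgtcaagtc

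The first is the 46-base start of a peak of 249 bases, with an enrichment of 1.78 in the authors' deposited table. The second is the first 50 of 100 bases of a peak that begins at the start of G530011O06Rik, with an enrichment of 1.27 in the authors' deposited table. The third is 88 of the 97 bases of the Gm16740 peak, enriched 1.18 in the authors' deposited table, and was read from the promoter window of Gabpb2 on the opposite strand. The fourth is 83 of the 144 bases of the Gm4532 peak, enriched 2.76 in the authors' deposited table, and was read from the window of Zfp553, also on the opposite strand. The letters GGACT, followed by GGACA, followed by GGACC, followed by AGACT, by the core GGAC and by the polyadenylation signal AATAAA were searched on the strand of the peak, and GGAC on the other strand as well. GGAC, which is part of the first 3 motifs, stood 2 times in the Gm16740 stretch and 2 times in the Gm4532 stretch, 0 times in the other two, and 0 times on the opposite strand of any. The Gm4532 stretch also held 1 GGACA, 1 GGACC and 1 AGACT, and no stretch held AATAAA. Among the first bases of all 27025 promoter windows, GGAC was found in 14.8% of stretches of 46 bases, 16.0% of 50 bases, 25.2% of 83 bases and 26.5% of 88 bases.

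Enrichment, the deposited ratio of IP over input at a peak, had the same median in both groups. The 332 peaks had a median enrichment of 1.82 (quartiles 1.5 and 2.14) and the other peaks a median of 1.82 (1.54 and 2.20). An enrichment of 2 or more was reached by 124 of the 332 peaks (37.3%, exact 95% binomial interval 32.1 to 42.8) and by 37.3% of the others (36.5 to 38.2). An enrichment of 3 or more was reached by 12 peaks (3.61%) and by 4.02% of the others. The upper end differed: the highest value was 3.87 here and 8.07 among the others. Within the placeholder names, coding genes had a median of 1.80, lncRNAs 1.79 and pseudogenes 2.05, where 14 of 22 peaks (63.6%, interval 40.7 to 82.8) reached 2. Only 18 of these 22 pseudogene peaks lie inside the RefSeq span of their gene. The peaks of Gm6793, Gm12669, Gm5801 and Gm5643 lie outside it and share bases with peaks of Hnrnpa3, Glrx3, Ube2j2 and Hnrnpa1. Intervals here and below cover counting error over peaks only, and peaks of 1 gene are not independent.

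The highest enrichment, 3.87 in the authors' deposited table, was at chrX:85888711-85888960 near the 3' end of the coding gene 5430427O19Rik. Next came the lncRNA Gm16712 with 3.73 in the authors' deposited table. The other 8 of the 10 highest lay between 3.07 and 3.41 in the authors' deposited table, in 4930523C07Rik, 0610043K17Rik, Gm1966, Gm12250, 2810006K23Rik, Gm32856, Gm5088 and 4632415L05Rik. These 10 peaks were in 6 coding genes, 2 lncRNAs and 2 pseudogenes, and each had 1 block. None of the 10 shared bases with a peak of another gene name. Gm12250, an interferon-inducible GTPase, had a second peak with an enrichment of 2.14 in the authors' deposited table.

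A set of lncRNAs with established names gave a reference. Of 47 names listed, 44 were in the RNA table and 15 had a peak, 31 peaks in all with a median enrichment of 1.97. Malat1, a nuclear speckle lncRNA, had 4 peaks of at most 2.76, Neat1, the scaffold of paraspeckles, 5 of at most 2.52, and Xist, which silences an X chromosome, 4 of at most 2.19 in the authors' deposited table. Norad is not in the table under that name, and its single peak appears as 2900097C17Rik at chr2:156392085-156392234, with an enrichment of 1.89 in the authors' deposited table. The mean normalized count of Norad, not divided by length, was 10329, the second highest of the 233 genes in the authors' deposited RNA table. The Chaserr peak, listed as 1810026B05Rik, spanned 3 blocks with an enrichment of 1.26 in the authors' deposited table.

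Peaks in placeholder genes crossed fewer exon blocks. Blocks are the separate pieces of a peak on the genome, and 81 of the 332 peaks (24.4%, interval 19.9 to 29.4) had 2 or more, against 40.6% (39.7 to 41.4) of the others. With 3 or more blocks the shares were 6.33% and 17.9%. Coding genes under these names had 2 or more blocks in 26.0% of peaks, and other coding genes in 40.8%. For lncRNAs the shares were 20.9% here and 9.33% among the 75 other lncRNA peaks. The summed block length differed little, with a median of 150 bases (quartiles 100 and 201) against 151 (101 and 249), but the longest peak was 799 bases here and 2989 among the others. The genomic span, introns included, had a median of 191 bases against 250 for the others.

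The 799-base peak lay in a single block of C530008M17Rik (Cracd, an inhibitor of actin capping protein), with an enrichment of 2.19 in the authors' deposited table. Next were 4632415L05Rik with 546 bases, 1110004F10Rik with 501 and 6430548M08Rik with 500 in the authors' deposited table. The most blocks, 6, were in the Gm44505 peak, which shares 348 of its 400 bases with a peak of Zfp91 on the same strand. Peaks of 5 blocks were found in 1110004F10Rik, 2700099C18Rik, 2810004N23Rik and 3830403N18Rik.

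Strand was close to that of other peaks. The plus strand held 203 of the 332 peaks (61.1%, interval 55.7 to 66.4) and 60.6% of the others. Gm genes had 49.5% of their peaks on the plus strand and Rik genes 66.2%. By chromosome, 9 of the 332 peaks (2.71%) lay on chromosome 2 against 8.59% of the others, while chromosome 17 held 29 (8.73%) against 4.50%.

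Peaks of coding genes with placeholder names were found near the 3' end, as for other coding genes, while those of lncRNAs were at both ends. Each peak was placed by its midpoint along the genomic span of its RefSeq gene, introns included, in 5 equal bins. Of 179 coding peaks, 53.6% lay in the last bin of the span and 5.59% in the first, against 48.4% and 8.37% of 12632 other coding peaks. Of 128 lncRNA peaks, 34.4% lay in the last bin and 27.3% in the first, and of 75 other lncRNA peaks 38.7% and 21.3%. Without peaks that share bases with a peak of another gene name, 97 lncRNA peaks remained, with 30.9% in the last bin and 28.9% in the first.

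**Figure D1:**
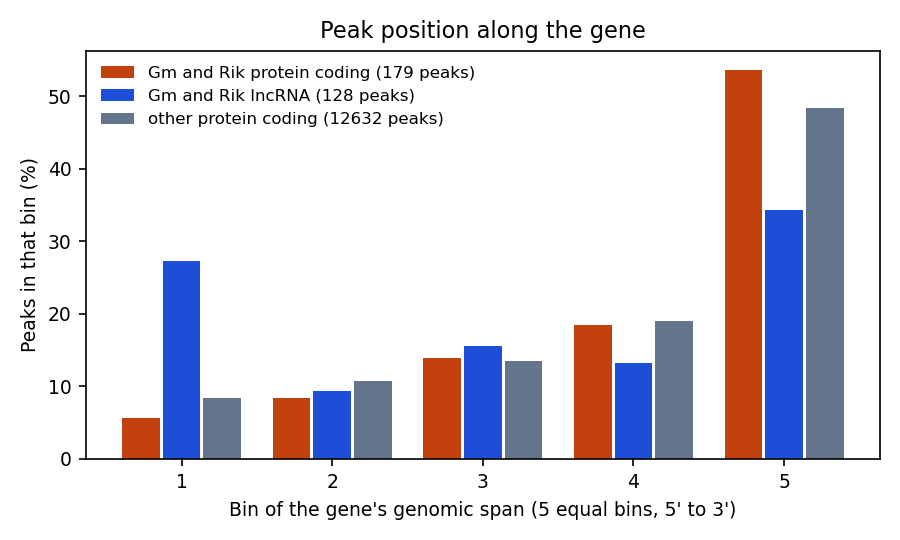
Share of peaks (vertical axis, %) in each of 5 equal bins of the gene's genomic span from 5' to 3' (horizontal axis), for Gm and Rik coding genes, Gm and Rik lncRNAs and other coding genes. The last bin holds 53.6%, 34.4% and 48.4% of peaks, and the first bin 5.59%, 27.3% and 8.37%.

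Most placeholder genes had a single peak. Of the 233 genes, 171 (73.4%) had 1 peak, 45 had 2 and 17 had 3 or more, against 53.1% with 1 peak among other genes. Peaks of 1 gene could differ widely in enrichment. The widest range was that of the 4 peaks of 4930523C07Rik, from 1.38 to 3.41 in the authors' deposited table. The 7 peaks of 4932438A13Rik, which encodes a very large lipid transfer protein, ran from 1.21 to 2.89 in the authors' deposited table, and its 7 differences between arms from -0.21 to 0.59. The 7 peaks of 9930021J03Rik ran from 1.30 to 1.74 in the authors' deposited table. Gm1966 had 6 peaks between 1.98 and 3.38 in the authors' deposited table, all in the last bin of its span. The lncRNA Gm28043 had 5 peaks between 1.28 and 2.18 in the authors' deposited table, and 4 of them overlap peaks of Rnf8 or Cmtr1 on the same strand. F830016B08Rik, an interferon-inducible GTPase, had 4 peaks between 1.33 and 2.29 in the authors' deposited table.

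The highest mean normalized count of the 233 genes, 13185, was that of 2610507B11Rik, and 6430548M08Rik had 8206 and C530008M17Rik 6981 in the authors' deposited table. These 3 are coding genes, and their peaks reached an enrichment of 2.20, 2.24 and 2.43 in the authors' deposited table.

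The RNA of genes with these peaks was, on the whole, less abundant than that of others. In the RNA table, 3366 of 25239 genes (13.3%) had a placeholder name, of which 1612 were listed at a mean count of 0 and 913 had an adjusted p. The mean normalized count, over libraries and not divided by gene length, had a median of 504 over the 332 peaks' genes and 2756 over those of other peaks. Among genes with an adjusted p, 225 of 913 placeholder genes (24.6%, interval 21.9 to 27.6) and 6599 of 14483 others (45.6%, 44.8 to 46.4) had a peak. At like counts that order was not seen. Between mean counts of 200 and 1000, 108 of 196 placeholder genes (55.1%, 47.9 to 62.2) had a peak, against 38.4% (37.0 to 39.9) of others, with median counts of 405 and 497 in that class. Counting only genes with a peak not shared with another name, these shares were 49.5% (42.3 to 56.7) and 37.6%. In the classes on either side the intervals overlapped: from 50 to 200 counts the shares were 17.7% and 15.5%, and from 1000 to 5000 they were 71.0% and 62.5%. With only unshared peaks counted, the shares were 14.8% and 14.8% from 50 to 200 counts, and 62.9% and 61.7% from 1000 to 5000. The median count lay lower in the placeholder genes in each of these 3 classes, and gene length was not taken into account.

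**Figure D2:**
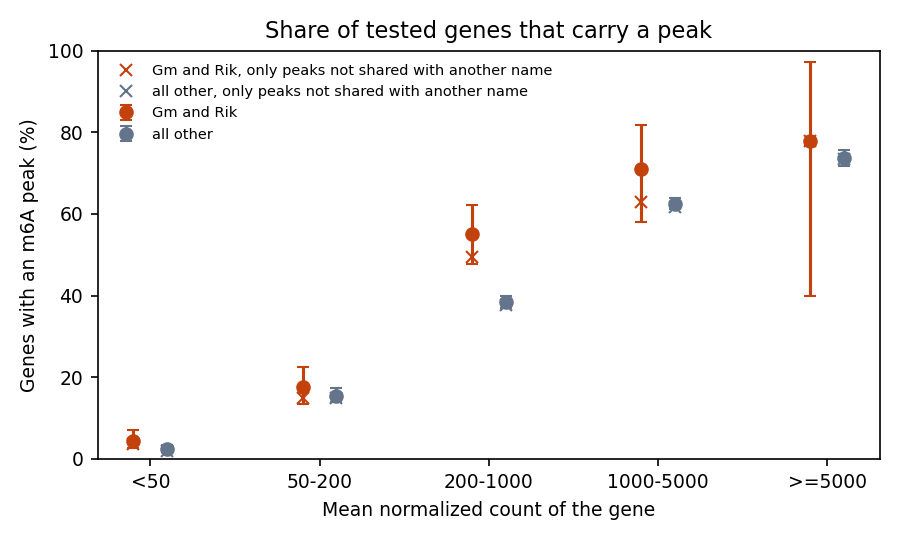
Share of tested genes with an m6A peak (vertical axis, %) by class of mean normalized count (horizontal axis), with exact 95% binomial intervals as bars; crosses count only peaks not shared with another gene name. Gm and Rik genes stand at 55.1% and others at 38.4% between 200 and 1000 counts.

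Part of the contrast in blocks and in the spread of differences followed the RNA count. When all genes with a peak were divided into 4 classes of equal gene number at mean counts of 776, 1873 and 4229, 200 of the 332 peaks fell in the lowest class. There, 18.5% of peaks in placeholder genes and 22.2% of others had 2 or more blocks. In the second class the shares were 30.1% and 33.5%, in the third 26.8% of 41 peaks and 40.6%, and in the highest 61.1% of 18 peaks and 53.4%. The median absolute log2 difference between arms in the lowest class was 0.23 for placeholder genes and 0.22 for others, and in the highest class 0.14 and 0.12. Median enrichment stayed between 1.74 and 1.90 in every class of both groups.

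**Figure D3:**
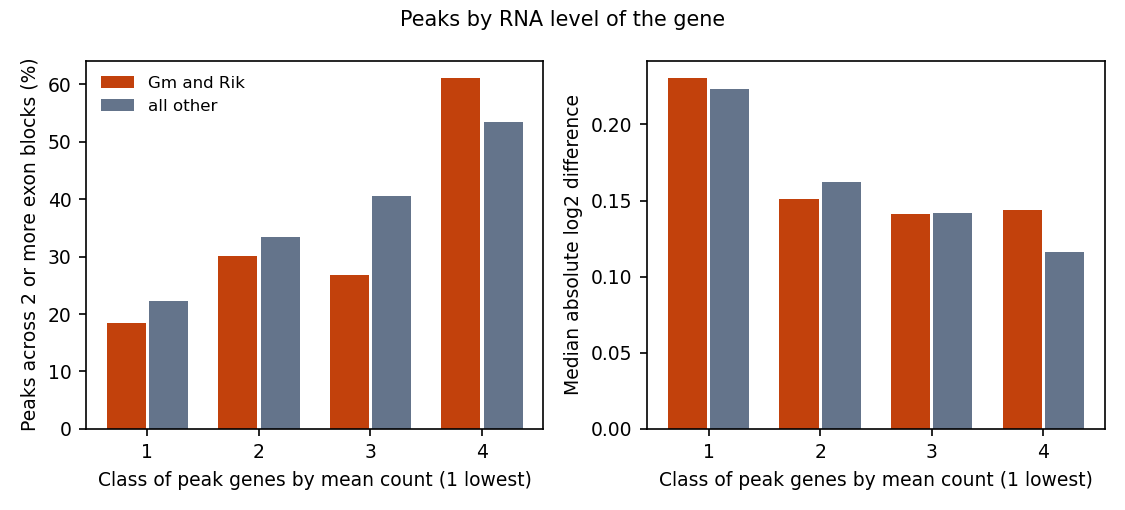
Left, share of peaks with 2 or more blocks (vertical axis, %); right, median absolute log2 difference between arms (vertical axis, log2), each by class of peak genes by mean count (horizontal axis, 1 lowest). In the lowest class Gm and Rik peaks stand at 18.5% and 0.23, and other peaks at 22.2% and 0.22.

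Many of these peaks lay over another gene. Of the 332, 105 (31.6%, interval 26.7 to 36.9) overlapped the span of another RefSeq gene, against 8.35% of the others. Among lncRNA peaks 72 of 129 (55.8%) did. Any overlap of the peak's genomic span, introns included, was counted, on either strand. The peak itself was often listed again under another name: 49 of the 332 (14.8%, 11.12 to 19.04) shared bases with a peak of another gene name, against 208 (1.63%) of the others. Of these 49, 23 had the other peak on the same strand and 26 on the opposite strand. Among lncRNA peaks 31 of 129 (24.0%) shared bases with another peak, 8 on the same strand and 23 on the opposite one.

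Such overlapping peaks carried close values, and enrichments were closer on the same strand than on opposite strands. Same-strand pairs also shared more of the Gm or Rik peak, a median of 97.0% of its bases against 85.1%. Strand and extent of overlap therefore cannot be told apart here. For 47 of them the other gene had an ordinary name, including 4 pairs of Hjurp with its older names, and the pairs named here were chosen after their values were seen. In 23 pairs on the same strand the enrichments differed by a median of 0.050 and at most 0.33, and in 24 pairs on opposite strands by a median of 0.12 and at most 0.75. Enrichments lay within 0.1 of each other in 17 of 23 same-strand and 10 of 24 opposite-strand pairs. The log2 differences between arms had the same sign in 21 of 23 and 19 of 24 pairs. The values of a pair share bases and libraries, and Pearson's r, given only as a description, was 0.97 over the same-strand and 0.81 over the opposite-strand pairs for enrichment. For the log2 difference between arms r was 0.985 over the same-strand and 0.966 over the opposite-strand pairs. In the opposite-strand pairs the other gene had the higher mean count in 21 of 24, with a median of 3318 against 106. In the same-strand pairs the other gene had it in 16 of 23, with a median of 2816 against 954.

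Gm9780 and Plac9b had the same peak, with 1.44 for enrichment and -1.43 for the log2 difference under both names in the authors' deposited table. The lncRNA A630019I02Rik had a peak with an enrichment of 1.97, whose 350 bases all lie in a peak of Cmya5, a muscle protein on the opposite strand, with 2.09 in the authors' deposited table. One Gm12992 peak, opposite the splicing factor Srsf4, had 2.33 and the Srsf4 peak 2.26 in the authors' deposited table. Fam83f and the lncRNA A430088P11Rik opposite it both had 1.39 in the authors' deposited table. The widest gap was that of a Gm15816 peak at 2.39 and Ank1, on the opposite strand, at 3.14 in the authors' deposited table. Gm5643 and Hnrnpa1, an RNA-binding protein, had enrichments of 1.97 and 2.08 on the same strand in the authors' deposited table. Gm6793, 1700095B10Rik and Gm20319 had a peak while their genes are listed at a mean count of 0, and each of these peaks overlaps one of a gene with counts, namely Hnrnpa3, Myo18b and Il1rap. The labels describe a stranded kit, but whether peak calling and counting used the strand is not given in the sources used here. Whether reads of opposite-strand pairs were separated was not tested, and values of genes with a near-identical copy or an overlapping partner are uncertain.

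**Figure D4:**
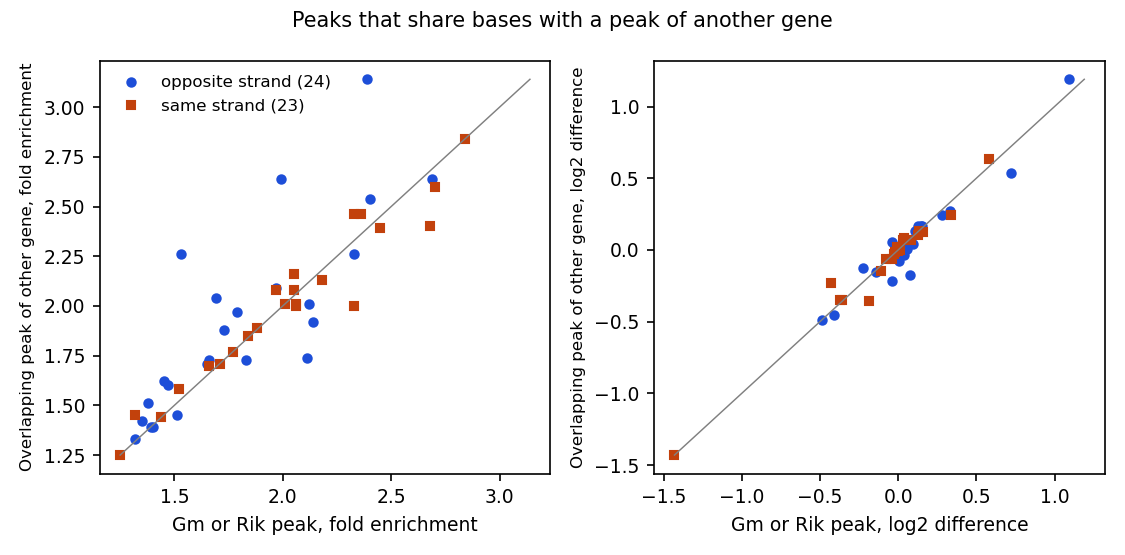
Each point is 1 of 47 Gm or Rik peaks (horizontal axis) and the peak of another gene that shares its bases (vertical axis), for fold enrichment (left) and the log2 difference between arms (right); the line marks equal values. Same-strand pairs differ in enrichment by a median of 0.050 and opposite-strand pairs by 0.12.

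The difference in enrichment between the arms passed the deposited p under 0.05 at 13 of the 332 peaks (3.92%), in 12 genes, against 4.92% of all 13083 peaks. Of the 13, 10 (3.01%) were positive, against 3.6% of all peaks, and 3 (0.904%) negative, against 1.32%. These shares are no higher than the background. At a false discovery rate (FDR) under 0.05 none of the 332 passed in the authors' deposited table, against 3 of all 13083 peaks, and 317 are listed at an FDR of 1. Over all 332 peaks the median log2 difference was 0.02 (quartiles -0.19 and 0.19), against 0.05 (-0.09 and 0.17) for the others, and 52.4% were positive, against 60.8%. The spread was wider: the median absolute difference was 0.19 against 0.14, and 10 peaks (3.01%) had an absolute difference of 1 or more, against 0.620% of the others. Only 3 of these 10 had a p under 0.05.

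The smallest p was at chr1:184873942-184874139 in the coding gene C130074G19Rik, with a difference of -1.03 (p = 0.000141 in the authors' deposited table) and an enrichment of 1.34. The gene's 2 other peaks differed by -0.06 and 0.12 in the authors' deposited table. Its RNA was negative too, at -0.81 ± 0.27 (SE; adjusted p = 0.0323 in the authors' deposited table). The other 2 negative peaks were those of Gm9780, at -1.43 (p = 0.00245 in the authors' deposited table), and Gm20716, at -0.43 (p = 0.00617 in the authors' deposited table). Both share bases with a peak of another gene, Plac9b and Adnp, a homeobox transcription factor. The overlapping Adnp peak holds all 299 bases of that Gm20716 peak. It had -0.23 with a log10 p of -0.947 in the authors' deposited table and was not called.

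Of the positive peaks, 2700099C18Rik had 0.49 (p = 0.00479), Gm12359 0.72 (p = 0.0129), Gm4070 0.58 (p = 0.0174), A930006K02Rik 0.64 (p = 0.0219) and 1600012H06Rik 0.43 (p = 0.0324) in the authors' deposited table. The pseudogene 5830417I10Rik had 2, one with a difference of 0.63 and one of 0.03, the latter with the second smallest p of the 332 (0.000295 in the authors' deposited table). The largest positive called difference, 1.06, was in the lncRNA B230354K17Rik, and Gm21188 had 0.85 and Gm12669 0.34 in the authors' deposited table. Gm12359 lies opposite Casc3, a core protein of the exon junction complex, whose peak had 0.54 in the authors' deposited table. The called Gm4070 peak lies outside the RefSeq span of that gene. It shares 347 of its 350 bases with a peak of Gvin1, a very large interferon-inducible GTPase. That Gvin1 peak had 0.63 in the authors' deposited table. In all, 6 of the 13 called peaks shared bases with a peak of another gene name, and 7 remained without them.

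Several large differences did not pass. The lncRNA Gm9776 had the largest, -2.13, with a log10 p of only -0.52 in the authors' deposited table and a mean count of 120. In 8430429K09Rik, 2 of its 4 peaks had differences of -1.08 and -1.03, and the one whose start is printed above had 0.09 in the authors' deposited table. All 4 peaks of F830016B08Rik were positive, from 0.17 to 1.31, and none was called in the authors' deposited table. The next negative peaks by p, in 1810014B01Rik, 4930526I15Rik and Gm20257, differed by -0.25, -0.45 and -0.78 in the authors' deposited table. In the lowest class by RNA count, which held 200 of the 332 peaks, 2.0% were called against 2.18% of other peaks there. In the classes above it the shares were 6.85% (5 of 73 peaks) against 3.65%, 9.76% (4 of 41) against 4.60%, and 0% (0 of 18) against 7.30%.

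**Figure D5:**
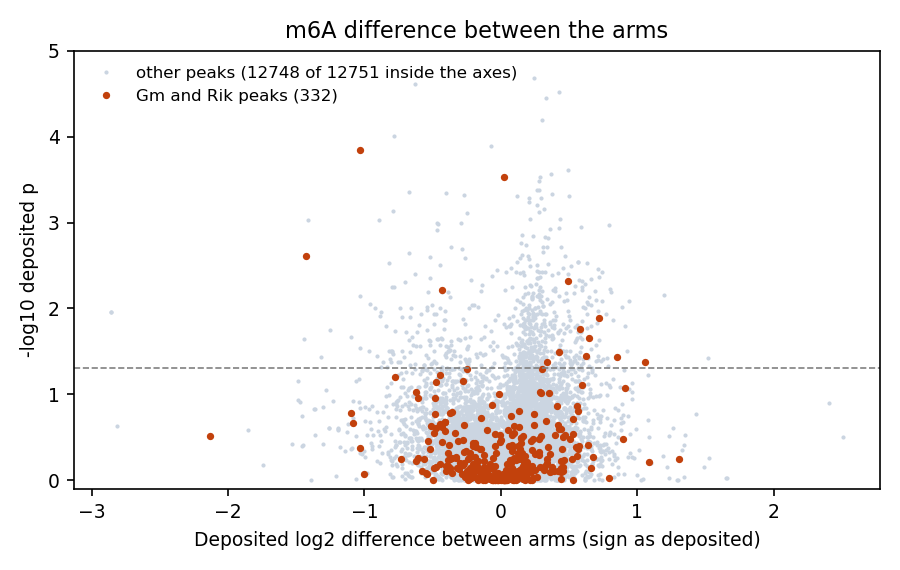
Log2 difference between arms (horizontal axis, sign as deposited) against -log10 of the deposited p (vertical axis) for 332 Gm and Rik peaks and 12748 of 12751 other peaks, with 3 outside the axes; the dashed line marks the 0.05 threshold. C130074G19Rik is the highest Gm or Rik point, at -1.03, and Gm9776 the farthest left, at -2.13.

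The RNA of the genes themselves differed between arms about as often as that of all genes. Of 225 genes with a peak and an adjusted p, 25 (11.1%) were called at 0.05 on the adjusted p of the authors' deposited table, against 12.2% of 15396 genes. Of these, 12 (5.33%) were positive, against 6.07%, and 13 (5.78%) negative, against 6.11%. Among all genes with a peak 13.9% were called, and among 688 placeholder genes without one 4.94%, at a median count of 49.3. In bulk tissue, fewer cells of a type and less RNA per cell cannot be told apart.

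The called genes had the following log2 fold changes, given first for those of smallest adjusted p or largest change, with their SE. B230118H07Rik (Iftap, a partner of the intraflagellar transport machinery) was negative, at -0.65 ± 0.12 (adjusted p = 3.7e-06 in the authors' deposited table). The lncRNA A630019I02Rik was at -3.84 ± 0.81 (adjusted p = 0.000154 in the authors' deposited table), with a mean count of 79.8. Cmya5, on the other strand at that place, was at -2.08 with a mean count of 30933 in the authors' deposited table. Gm12250 was positive at 0.58 ± 0.12 (adjusted p = 0.000222 in the authors' deposited table), and the pseudogene Gm6525 at 1.75 ± 0.38 (adjusted p = 0.000318 in the authors' deposited table). Gm1966, the gene with 6 peaks, was at 1.23 ± 0.37 (adjusted p = 0.0120 in the authors' deposited table), while its peaks differed by -0.41 to 0.10 and none was called. Beside these, 1110002E22Rik stood at -1.61 ± 0.55 and the lncRNA 2310040G24Rik at -1.11 ± 0.40 in the authors' deposited table.

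Besides C130074G19Rik at -0.81, given above, the other called genes had log2 fold changes between -0.71 and 0.99. Positive were 9530027J09Rik at 0.99, 9430015G10Rik at 0.85, A630089N07Rik at 0.71, 4933439C10Rik at 0.61 and D330041H03Rik at 0.56 in the authors' deposited table. Smaller positive values were those of D030056L22Rik at 0.51, A630001G21Rik at 0.30, E130309D02Rik at 0.29 and 5830417I10Rik at 0.28 in the authors' deposited table. Negative were Gm9776 at -0.71, Gm16845 at -0.66, Gm12669 at -0.60, Gm15246 at -0.46 and A430046D13Rik at -0.45 in the authors' deposited table. Smaller negative values were those of 3110082I17Rik at -0.33, 2610005L07Rik at -0.30 and 0610010F05Rik at -0.30 in the authors' deposited table. Only 3 genes were called for both RNA and a peak, namely C130074G19Rik, 5830417I10Rik and Gm12669. In C130074G19Rik both signs were negative, in 5830417I10Rik both positive, and in Gm12669 the RNA was negative and the peak positive. The called Gm12669 peak lies outside the RefSeq span of that gene and shares 125 of its 146 bases with a peak of Glrx3, a glutaredoxin, which had a difference of 0.24 and a log10 p of -0.43 in the authors' deposited table. One of the called 5830417I10Rik peaks shares bases with a peak of 1500004A13Rik on the opposite strand. The 2 tables may not have the same arm in the numerator.

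The RNA table held the markers of bone, with mean counts from 482 for the osteoblast transcription factor Sp7 to 99868 for collagen Col1a1, and the osteocyte genes Dmp1 and Sost at 8758 and 2792. Other cells were present as well, with 336368 for the muscle myosin Myh4, 225725 for the neutrophil protein S100a9 and 311988 for the globin Hba-a1. All 6 muscle markers had negative values, from -1.30 to -1.62, of which 2 (Myh1 and Actn3) had an adjusted p below 0.05 in the authors' deposited table. All 6 B cell markers had positive values, from 0.57 to 3.07, of which all but Ms4a1 did in the authors' deposited table. Among the bone and osteoclast markers, Col1a1 at 1.12, Bglap at 1.08, Bglap2 at 1.10 and Ctsk, the osteoclast protease, at -0.72 passed in the authors' deposited table. Most other bone markers were negative without passing: Ibsp at -0.53, Phex at -0.56, Alpl at -0.49, Sost at -0.44, Mepe at -0.09 and Dmp1 at -0.08. Sp7, at 0.06 in the authors' deposited table, did not pass either. The remaining osteoclast markers, Acp5, Mmp9, Calcr and Ocstamp, were also negative without passing. The part of these cell types in the RNA and m6A differences above was not tested.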

How the data were processed

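RNA and m6A IP libraries of mouse bone were processed by the authors. HISAT2, StringTie, DESeq and the build rn6 appear in the submitters' processing notes, with no roles. Which peak caller was used, and on pooled or single replicates, is not given in the sources used here. Per the file headers, the authors deposited for each peak a p-value, log10 values of that p and its FDR, fold enrichment as a ratio, and a log2 difference between arms with log10 p and FDR (held here as a score). Per the file headers, the deposited RNA table gives a normalized count signal averaged over libraries, a log2 fold change with SE, a Wald score and p-values. Its adjusted p-values are the authors'. Depth per library is missing from both tables, so the precision of single values is known only through the deposited SE and p. The design had allowed for counts per library, and none were at hand, so no model was fitted.

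The named build is of rat, but the peaks match mouse GRCm38: 13000 of 13026 peaks lay inside the gene of their name and 325 of the 332 members did. Strand was equal in 10464 of 10464 checked peaks, and 29 peaks began at their gene's start, with 0 at 1 base to either side. Coordinates are counted from 1.

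Medians, shares and overlaps (at least 1 shared base of a block, any strand) were computed with Python 3.11.15, pandas 2.3.3, numpy 2.4.6, scipy 1.17.1 and matplotlib 3.10.9, with code tested on simulated data. Shares have exact 95% binomial intervals. Promoter sequences and gene classes are from RefSeq. Members and lists were chosen with earlier results of these data known. The rule for named genes took the 10 most enriched peaks, the 6 smallest difference p in each sign, genes with 3 or more peaks, the 4 longest peaks and the 4 with most blocks, the 4 genes of highest count, and up to 10 called RNA genes per sign; ties and part of these are given as counts. All called RNA genes are named, and other genes named were chosen after their values were seen. Alternatives changed the thresholds, used 1 peak per gene, split Gm from Rik names, or left out shared peaks.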

Additional observations from a re-analysis of the deposited data

How the results depend on the processing

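Of 31 alternatives over 7 results, 19 kept the value close to the one reported and 12 moved it. Other thresholds or measures, and keeping the most enriched peak, tend to move a value by construction, so this tally does not measure robustness. Taking 1 peak per gene (the most enriched) raised the median enrichment from 1.82 to 1.90 and the share at 2 or more from 37.3% to 44.2%, and lowered the number of called difference peaks from 13 to 6. The share was 76.8% at an enrichment threshold of 1.5 and 3.61% at 3. Median length was 150 bases of blocks and 191 of genomic span. The share with several blocks was 24.4% at 2 or more and 6.33% at 3 or more. The plus strand held 61.1% of peaks and 49.5% of Gm peaks alone. Called difference peaks numbered 5 at p under 0.01, 0 at FDR under 0.05, and 7 without peaks shared with another gene name, an alternative chosen after seeing the data. Called RNA genes fell from 25 to 10 at an adjusted p under 0.01. None of these results carries a sign, so direction was not among what the alternatives could test. No paired analysis was possible because the tables hold no values per library, and for the same reason no library could be left out in turn. The depth of each library is unknown, so what depth limits could not be measured.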
